A study of Mus musculus with 24 samples.

Results

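The 10 genes described here encode carriers, and a scaffold of carriers, with which the kidney's proximal tubule takes up organic anions, sulphate and bicarbonate and secretes acid. They were chosen by name: Slc13a1, Slc13a2, Slc13a3, Slc5a8, Slc5a12, Slc4a4, Slc9a3, Slc9a3r1 (also called Nherf1), Slc26a1 and Slc26a6. They are 10 of 35460 genes with reads assigned through their Ensembl transcripts, and all 10 passed the filter on low counts in each fit. The data are bulk RNA sequencing of whole mouse kidney, 24 libraries in 2 experiments. In the first experiment, 4 libraries came from mice on a chow diet. A further 6 came from mice without the CAG-ERCre transgene (wild type by label) on an adenine diet, and 6 from mice with the transgene on the same diet, in which tamoxifen was given to delete a floxed Enpp1 (ENPP1 fl/fl crossed with CAG-ERCre). In the second experiment, 4 libraries came from mice given control IgG and 4 from mice given a monoclonal antibody to human ENPP1, in each case on the adenine diet, by intraperitoneal injection of 50 mg/kg, 2 times a week. Adenine was fed for 14 days in both experiments.

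The Cre driver is a general one, so the intended deletion is not limited to tubule cells, and the transgene coincides with the knockout label. Whether the wild-type mice also received tamoxifen, the genotype of the chow mice, the strain, sex and age of all mice, and whether the mice given antibody carried a human ENPP1 gene are not stated in the labels or the series design. Nothing in the labels states that each library is a separate animal. The p-values measure the spread between these libraries, which may be partly technical.

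In the proximal tubule, the sodium pump on the blood side keeps cell sodium low, and carriers on the urine side use the inward sodium gradient to recover solutes from the filtrate. Bicarbonate is recovered indirectly: protons leave the cell in exchange for sodium, and bicarbonate leaves through the blood side together with sodium. Sulphate, citrate, dicarboxylates and lactate enter with sodium, and anion exchangers move sulphate and oxalate onward.

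Sequences of some of the genes come first, as description, and whether they bear on any change in level was not tested. One is a coding exon of a longer Slc13a3 transcript whose estimated share of the gene's reads changed. Reads over the exon itself were not counted, and this transcript also differs from the shorter one at its 3′ end. The others are promoters of genes that moved by very different amounts, set side by side. The first is exon 6 of 13 of the longer coding transcript of Slc13a3 (ENSMUST00000029208), 126 bases or 42 codons, at chr2:165430208-165430333 on the minus strand of GRCm38 in GENCODE M21. Capitals mark this exon, which the shorter coding transcript (ENSMUST00000109279) skips, and the lower-case letters are the 30 neighbouring transcript bases on each side. The exon lies in the coding region, which is 1800 bases in the longer and 1674 in the shorter transcript.
Slc13a3 exon 6: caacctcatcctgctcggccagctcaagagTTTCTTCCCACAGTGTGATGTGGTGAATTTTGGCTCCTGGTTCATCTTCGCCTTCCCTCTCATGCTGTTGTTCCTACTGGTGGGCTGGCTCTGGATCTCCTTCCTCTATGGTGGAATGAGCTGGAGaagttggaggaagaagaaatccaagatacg

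The next 3 are promoter windows from RefSeq on GRCm38.p6, each from 250 bases before to 50 after the annotated start, 5′ to 3′ on the gene's strand. Of the 10 genes, 8 matched this table, with 10 windows. Slc13a1 and Slc5a12 had none. Slc13a3 is shown as a gene with a deep fall on adenine, and Slc13a2 and Slc9a3 as genes with shallow falls that resembled each other most among the 10. The windows lie at chr2:165473148-165473447 (Slc13a3, minus strand), chr11:78422185-78422484 (Slc13a2, minus strand) and chr13:74121163-74121462 (Slc9a3, plus strand). Capitals mark matches, on either strand, to an E-box (CACGTG) or a TATA element (TATAAA).
Slc13a3: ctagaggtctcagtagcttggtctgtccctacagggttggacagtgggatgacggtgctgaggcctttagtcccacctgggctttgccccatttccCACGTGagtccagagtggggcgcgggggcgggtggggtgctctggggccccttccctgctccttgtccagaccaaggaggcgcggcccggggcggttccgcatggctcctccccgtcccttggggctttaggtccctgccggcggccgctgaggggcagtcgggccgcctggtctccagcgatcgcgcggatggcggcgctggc
Slc13a2: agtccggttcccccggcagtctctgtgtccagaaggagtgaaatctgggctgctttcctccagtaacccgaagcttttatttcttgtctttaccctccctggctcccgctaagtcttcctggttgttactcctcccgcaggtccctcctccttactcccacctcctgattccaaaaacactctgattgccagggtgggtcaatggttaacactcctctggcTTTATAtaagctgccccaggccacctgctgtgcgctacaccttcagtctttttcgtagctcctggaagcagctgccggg
Slc9a3: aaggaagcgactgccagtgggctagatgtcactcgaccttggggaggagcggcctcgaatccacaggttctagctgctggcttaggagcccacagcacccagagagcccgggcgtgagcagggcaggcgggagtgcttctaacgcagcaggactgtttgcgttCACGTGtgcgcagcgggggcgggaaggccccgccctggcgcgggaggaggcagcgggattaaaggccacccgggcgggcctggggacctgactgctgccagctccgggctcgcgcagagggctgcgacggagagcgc

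CACGTG occurred in 3 of the 10 windows (Slc13a3, Slc9a3 and 1 of the 2 windows of Slc26a1) and in 7.15% of all 32851 promoter windows of the same length. TATAAA occurred in 2 of them (Slc13a2 and the same window of Slc26a1) and in 13.6% of all. GTTAAT, a half-site of the proximal tubule factor HNF1, occurred in none of the 10 and in 7.10% of all windows. CAAAGTCCA, a site of HNF4, likewise occurred in none, and in 0.475% of all. The matches do not overlap one another, and a match or its lack describes only these letters. The CpG count was 22 for Slc13a3, 25 for Slc9a3 and 8 for Slc13a2, against a median of 7 over all windows.

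Reads assigned to genes numbered from 21057859 to 28213689 per library in the first experiment and from 43886517 to 50566596 in the second, with mitochondrial transcripts at 16.9% to 26.7% and 20.6% to 30.1% of them. Levels are given as CPM, the edgeR measure of counts relative to library size, here after TMM scaling within an experiment. Changes are log2 differences with their standard error from edgeR's quasi-likelihood test, and a gene was called when its Benjamini-Hochberg adjusted p was under 0.05. Enpp1 itself, summed over its transcripts, had 21.5, 22.3 and 24.7 CPM (lowest, median and highest) in the libraries labelled knockout and 20.9, 21.3 and 24.9 CPM in wild type on adenine. The groups overlapped, and the log2 difference of 0.048 ± 0.051 was not called (edgeR adjusted p = 0.465). Which part of Enpp1 is deleted is not given in the sources used here, so this level does not check the deletion itself. The groups are therefore named below as the libraries labelled knockout. Kidney markers were at high levels: 5 markers of the early and middle proximal tubule summed to 1581 to 1683 TPM (a level corrected for transcript length) per chow library, and none of the 5 had a mean under 1 TPM in any group.

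Between genes, levels were compared per length, in TPM. On chow the order was Slc13a3 (181 ± 8.56 TPM, SD, n = 4), Slc13a1 (111 ± 7.64), Slc9a3r1 (96.7 ± 5.04), Slc5a12 (73.4 ± 4.25), Slc4a4 (51.8 ± 3.89), Slc26a1 (21.2 ± 0.890), Slc9a3 (18.8 ± 0.318), Slc13a2 (17.7 ± 0.580), Slc5a8 (14.0 ± 1.01) and Slc26a6 (2.14 ± 1.28). No neighbours in that order overlapped between libraries. On adenine the sulphate carrier Slc13a1 stood first in each group, with 202 ± 34.6 TPM in wild type (n = 6), 176 ± 18.0 in the libraries labelled knockout (n = 6), 356 ± 49.4 with IgG (n = 4) and 637 ± 54.1 with antibody (n = 4). In wild type on adenine Slc13a3 had dropped to the third place with 48.7 ± 6.08 TPM, a range that overlapped that of Slc5a12. In the libraries labelled knockout it was second with 117 ± 29.0 TPM, and its range overlapped those of Slc13a1 above it and Slc9a3r1 below it. Slc26a6 or Slc5a8 stood last in each group. The 10 genes summed to 588 ± 22.8 TPM on chow, 446 ± 39.7 in wild type on adenine, 579 ± 82.6 in the libraries labelled knockout, 615 ± 71.9 with IgG and 1152 ± 70.0 with antibody. Slc13a1 was the largest single part of each sum on adenine, so the sums need not follow the other genes.

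**Figure D1:**
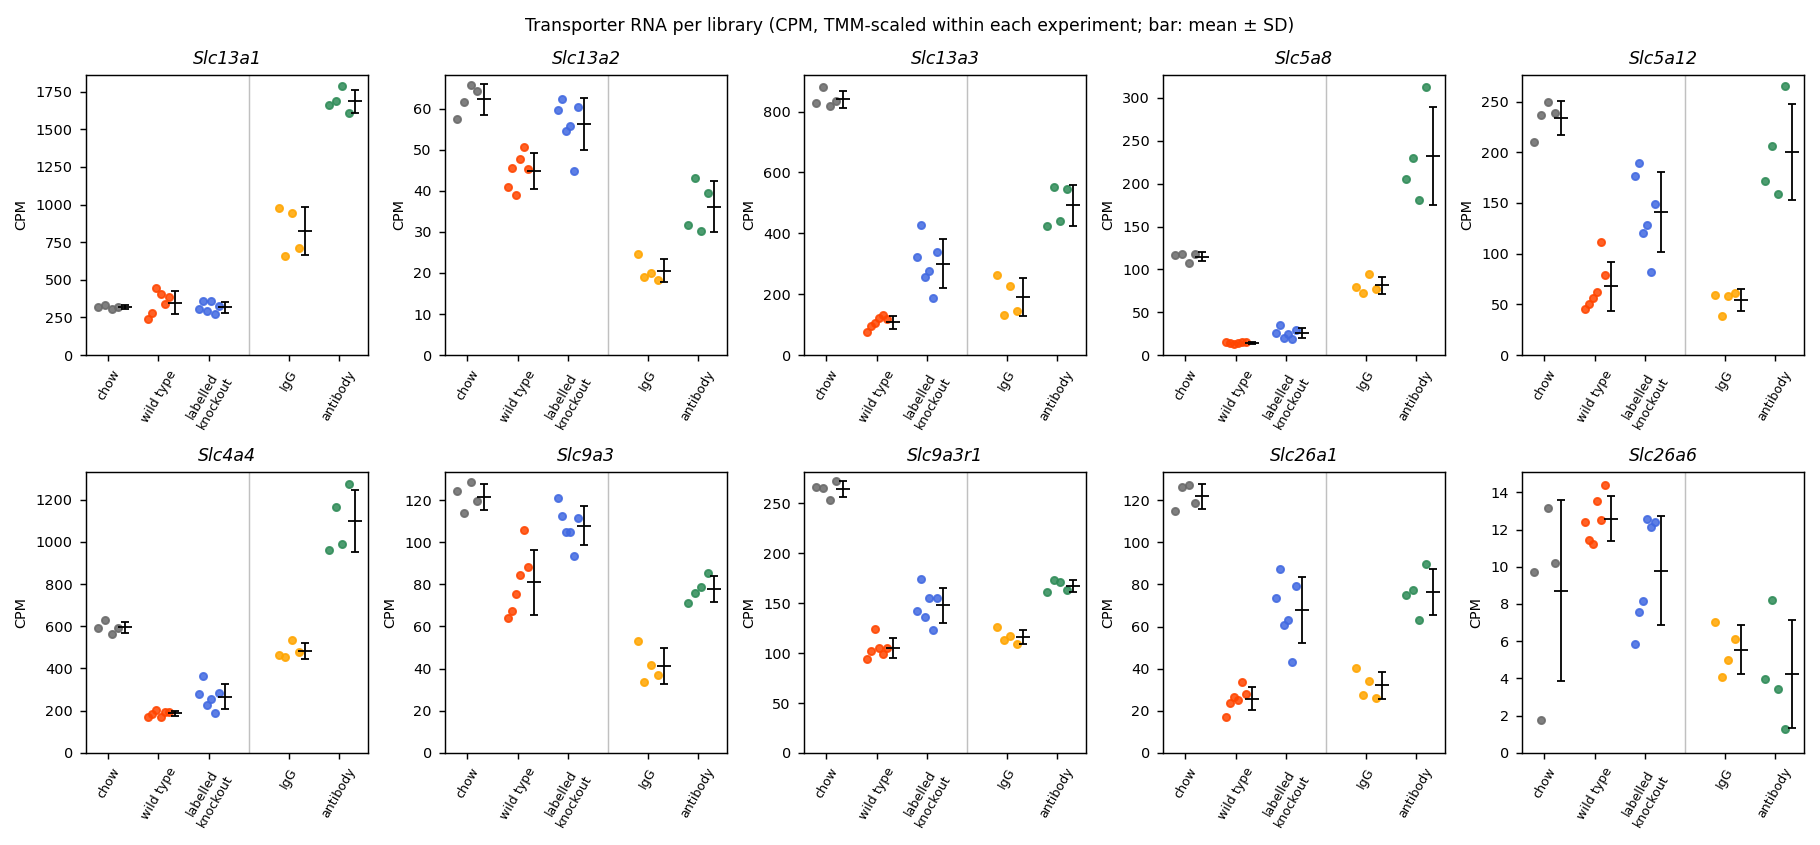
CPM of each of the 10 genes (vertical axis, linear, from 0) in each library (points) of the 5 groups (horizontal axis), with the mean and SD beside each group; the grey line separates the 2 experiments, which were scaled separately. Slc13a3, Slc5a8, Slc4a4 and Slc26a1 show wide gaps between chow and wild type on adenine, and 9 of the 10 genes lie higher with antibody than with IgG without overlap.

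The comparison of wild type on adenine with chow addresses the diet itself, although the unstated genotype of the chow mice cannot be told apart from it. Of the 10 genes, 8 fell and 0 rose. The monocarboxylate carrier Slc5a8 and the dicarboxylate carrier Slc13a3 were at 12.5% and 12.8% of their chow means, while Slc9a3 and Slc13a2 kept 66.6% and 72.0%. Over all 16965 genes tested, 84.9% were called, 40.9% lower and 44% higher. In each of the 8 genes all wild-type adenine libraries lay below all chow libraries, as did 37.4% of all genes. The median log2 change of the 10 genes was -1.50, against 0.073 over all genes tested. The count of 0 in the other direction, here and in the comparisons below, was also 0 at an unadjusted edgeR p under 0.05 and with DESeq2.

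How far these falls go depends on the scaling. TMM factors were 0.717 to 0.741 in chow libraries and 1.04 to 1.24 in the adenine libraries of this experiment. With library size alone, a setting added after the data had been seen, the median of all genes moved to 0.72 for wild type on adenine against chow and to 0.60 for the libraries labelled knockout against chow. The split of all genes called higher and lower then went from 7459 and 6947 to 11124 and 3691 in the former comparison, and from 6815 and 6770 to 10928 and 2993 in the latter. Upper-quartile scaling gave 8795 and 5783 in the former and 8018 and 5700 in the latter. With library size alone the fall of Slc13a2 turned to a rise of 0.18 (edgeR adjusted p = 0.0282) and that of Slc9a3 to 0.056 (edgeR adjusted p = 0.551). Under library size alone, 6 genes remained called lower (Slc13a3, Slc5a8, Slc5a12, Slc4a4, Slc9a3r1 and Slc26a1) and 3 were called higher (Slc13a1, Slc13a2 and Slc26a6). In bulk tissue fewer cells of a type and less RNA per cell cannot be told apart.

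**Figure D2:**
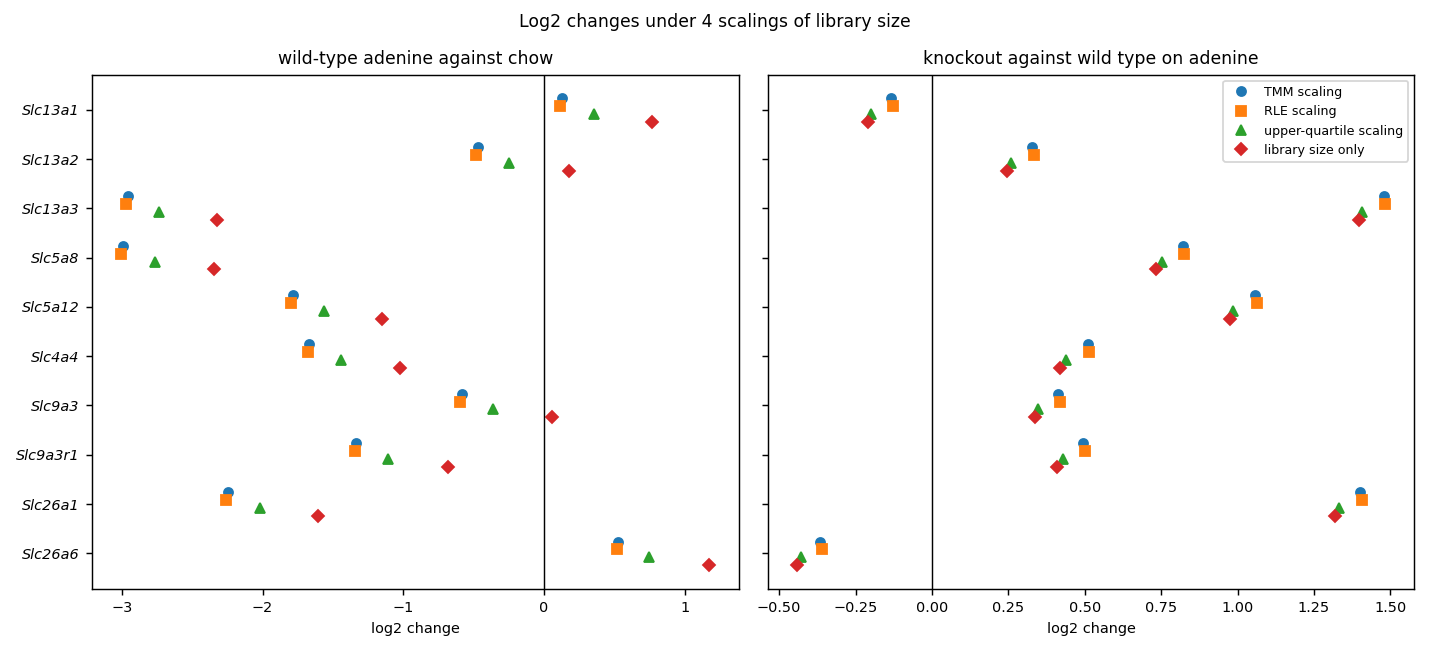
Log2 change of each gene (horizontal axis) under TMM, RLE, upper-quartile and no scaling beyond library size (symbols), for wild type on adenine against chow (left) and the libraries labelled knockout against wild type (right; the horizontal axes differ). Against chow Slc13a2 and Slc9a3 cross 0 with library size alone (0.18 and 0.056), while in the right panel no gene changes sign.

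The dicarboxylate and citrate carriers responded unevenly. Slc13a3 encodes NaDC3, the dicarboxylate carrier of the blood side of the cell. It measured 829, 881, 817 and 835 CPM in the chow libraries, and 75.5, 112 and 131 CPM (lowest, median and highest of 6) in wild type on adenine. The groups lay far apart, with a log2 change of -2.96 ± 0.17 (edgeR adjusted p = 5.86e-12). Slc13a2 encodes NaDC1, the carrier of the urine side that recovers citrate. It had 57.4, 61.5, 65.8 and 64.2 CPM on chow and 38.9, 45.3 and 50.6 CPM in wild type on adenine. Its groups did not overlap either, and the log2 change was -0.47 ± 0.083 (edgeR adjusted p = 3.28e-05).

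The sodium-coupled monocarboxylate carriers, which recover lactate and other short acids on the urine side, both fell. Slc5a8 had 116, 118, 107 and 118 CPM on chow and 13.0, 14.6 and 15.4 CPM in wild type on adenine, a tight group. Its log2 change was -2.99 ± 0.12 (edgeR adjusted p = 3.22e-14). Slc5a12, the low-affinity relative, had 210, 237, 250 and 238 CPM on chow and 45.7, 59.4 and 112 CPM in wild type on adenine. Replicate 5 was the highest of these, and still below each chow library (log2 change -1.79 ± 0.22, edgeR adjusted p = 3.53e-07).

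Among the acid and bicarbonate genes, the estimated fall was larger for the carrier of the blood side than for that of the urine side. Slc4a4 encodes NBCe1, through which bicarbonate leaves the cell. It had 590, 632, 566 and 594 CPM on chow and 171, 190 and 205 CPM in wild type on adenine, with no overlap (log2 change -1.67 ± 0.12, edgeR adjusted p = 1.54e-10). Slc9a3 encodes NHE3, the sodium-proton exchanger of the urine side. It had 124, 114, 128 and 120 CPM on chow and 63.9, 80.1 and 106 CPM in wild type on adenine, separate by a small margin (log2 change -0.59 ± 0.11, edgeR adjusted p = 4.89e-05). The intervals of both changes, -1.92 to -1.42 and -0.81 to -0.36 (95%), do not meet, but the difference between the genes was not tested. Slc9a3r1 encodes NHERF1, a scaffold and not a carrier, which holds NHE3 and the phosphate carrier at the brush border. It had 266, 266, 254 and 272 CPM on chow and 94.5, 104 and 124 CPM in wild type on adenine (log2 change -1.33 ± 0.081, edgeR adjusted p = 1.22e-11), again with no overlap.

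The sulphate carriers went apart. Slc26a1 encodes SAT1, the sulphate and oxalate exchanger of the blood side. It had 115, 126, 127 and 119 CPM on chow and 16.9, 25.9 and 33.5 CPM in wild type on adenine (log2 change -2.25 ± 0.16, edgeR adjusted p = 1.47e-10). Slc13a1 encodes NaS1, the sodium-sulphate carrier of the urine side. It had 322, 331, 303 and 322 CPM on chow and 240, 363 and 446 CPM in wild type on adenine, on both sides of the chow values. Its log2 change was 0.13 ± 0.13 with a 95% interval of -0.15 to 0.41 (edgeR adjusted p = 0.374), and with library size alone it was 0.77 (edgeR adjusted p = 2.65e-06). Slc26a6 encodes an exchanger of chloride for oxalate and other anions. It had 9.74, 1.78, 13.2 and 10.2 CPM on chow and 11.2, 12.5 and 14.4 CPM in wild type on adenine, and was not called (log2 change 0.53 ± 0.31, edgeR adjusted p = 0.121). Without chow replicate 3 its change was 0.81 (edgeR adjusted p = 0.0336). Its reads were few and were divided among coding, retained-intron and decay transcripts in uneven shares: the retained-intron transcript ENSMUST00000193463 took from 0% to 87.8% of them between chow libraries. The level of Slc26a6 is therefore uncertain throughout.

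Exons of 2 of the genes overlap a gene on the opposite strand in GENCODE M21. Slc13a2 shares 632 of its 2412 exon bases with Slc13a2os, and Slc26a1 shares 141 of 4050 with Idua. The libraries were stranded, but the strand setting of the quantification is not given in the sources used here.

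Other cell types moved in this comparison too. All 5 markers of the early and middle proximal tubule and all 4 of its last segment were called lower. So were markers of the collecting duct (5 of 5), podocytes (3 of 3), endothelium (3 of 3) and later nephron segments from the loop of Henle on (3 of 4, with 1 called higher). In TPM, which carries no TMM scaling, the early and middle proximal markers summed to 1581 to 1683 per chow library. Their sums were 1076 to 1899 TPM in wild type on adenine, so the sums overlapped although each marker was called lower. Slc34a1 weighs heavily in them (mean 1602 TPM over the 16 libraries of the first experiment). The 5 injured-tubule markers, which include Havcr1 and Lcn2, were all called higher, with summed levels of 7.31 to 8.73 TPM per chow library and 629 to 892 TPM in wild type on adenine. Macrophage markers were called higher for 4 of 5, from 56.0 to 64.4 TPM on chow and from 210 to 411 TPM on adenine in sum. Of the 4 fibroblast markers 2 were called higher and 2 lower. Red blood cell markers were called lower for 5 of 5, from 1644 to 2073 TPM on chow and from 40.6 to 96.0 TPM on adenine. Of 4 pancreas markers, 3 had means under 1 TPM in each group. The other, Cela1, was called lower (log2 change -3.91 ± 0.17), and the 4 summed to 157 to 183 TPM on chow and 19.1 to 30.4 TPM in wild type on adenine. The part of these shifts in the falls of the 10 genes was not tested.

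On adenine, the libraries labelled knockout had higher levels than wild type for 8 of the 10 genes and lower levels for 0. Slc13a3 was 2.79-fold, Slc26a1 2.64-fold and Slc5a12 2.08-fold higher. The others that rose were Slc5a8, Slc4a4, Slc9a3r1, Slc9a3 and Slc13a2, by 1.25-fold to 1.77-fold, and Slc13a1 and Slc26a6 did not pass the test. Over all genes 46.4% were called, 25.1% higher and 21.3% lower. In 3 of the 8 (Slc13a3, Slc5a8 and Slc26a1) the groups did not overlap, as in 14.4% of all genes in this direction. The median log2 change of the 10 genes was 0.50, against -0.020 over all genes. The called results stood in all 192 alternative fits of single genes, scaling and left-out libraries included. Scaling moved the split over all genes, from 4260 higher and 3613 lower to 3486 and 5063 with upper-quartile scaling and 2941 and 4997 with library size alone.

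Slc13a3 had 188, 299 and 426 CPM (lowest, median and highest) in the libraries labelled knockout, all above the highest wild-type library at 131 CPM. The log2 change was 1.48 ± 0.16 (edgeR adjusted p = 6.50e-07). Slc13a2 had 44.8, 57.7 and 62.3 CPM, overlapping the wild-type range (log2 change 0.33 ± 0.075, edgeR adjusted p = 0.00153). Both dicarboxylate carriers thus rose, with the larger estimate for that of the blood side.

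Slc5a8 had 18.8, 25.1 and 34.8 CPM, above the wild-type maximum of 15.4 CPM (log2 change 0.82 ± 0.11, edgeR adjusted p = 1.21e-05). Slc5a12 had 82.2, 139 and 190 CPM, and 1 library, replicate 5, lay below the wild-type maximum of 112 CPM (log2 change 1.06 ± 0.20, edgeR adjusted p = 0.000320). Both monocarboxylate carriers, of the urine side, rose, with larger estimates than that of Slc4a4 of the blood side (0.51 ± 0.11).

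Slc4a4 had 187, 267 and 365 CPM and overlapped wild type (log2 change 0.51 ± 0.11, edgeR adjusted p = 0.000974). Slc9a3 had 93.5, 108 and 121 CPM, also with overlap (log2 change 0.41 ± 0.096, edgeR adjusted p = 0.00182). Slc9a3r1 had 123, 149 and 174 CPM, and its lowest library fell just under the wild-type maximum of 124 CPM (log2 change 0.49 ± 0.074, edgeR adjusted p = 3.06e-05). The bicarbonate carrier, the proton exchanger and the scaffold thus rose by 0.41 to 0.51 on the log2 scale.

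Slc26a1 had 43.0, 68.3 and 87.5 CPM, all above the wild-type maximum of 33.5 CPM (log2 change 1.40 ± 0.15, edgeR adjusted p = 7.50e-07). Slc13a1 had 273, 315 and 359 CPM, inside the wild-type range, with a log2 change of -0.13 ± 0.12 and a 95% interval of -0.38 to 0.11 (edgeR adjusted p = 0.371). Slc26a6 had 5.88, 10.1 and 12.6 CPM (log2 change -0.37 ± 0.27, edgeR adjusted p = 0.274). As against chow, the sulphate exchanger of the blood side moved and the sodium-sulphate carrier of the urine side did not pass the test.

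**Figure D3:**
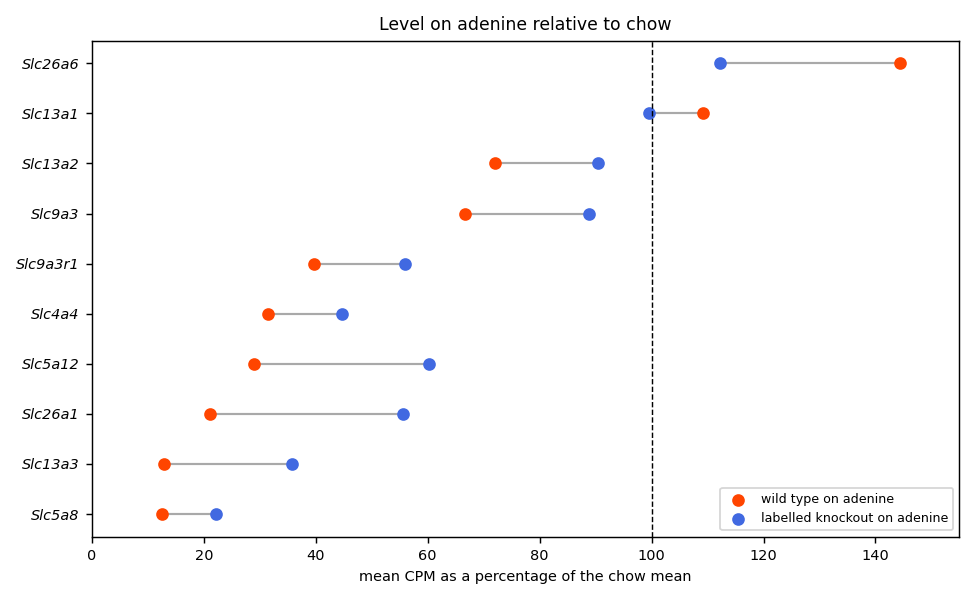
Mean CPM on adenine as a percentage of the chow mean (horizontal axis, TMM scaling) for wild type and for the libraries labelled knockout, for each gene (vertical axis); grey lines join the 2 values of a gene and the dashed line marks 100%. Slc13a3 moves from 12.8% to 35.8%, and Slc5a8 from 12.5% to 22.2%.

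Against chow, 6 genes were lower in the libraries labelled knockout and 0 were higher, where 80.1% of all genes were called, 39.9% lower and 40.2% higher. Slc5a8 stood lowest at 22.2% of its chow mean (log2 change -2.17 ± 0.12, edgeR adjusted p = 3.76e-12), then Slc13a3 at 35.8% (-1.48 ± 0.17, edgeR adjusted p = 1.35e-07). Slc4a4 was at 44.7%, Slc26a1 at 55.7%, Slc9a3r1 at 55.9% and Slc5a12 at 60.3%. In each of these 6 genes all libraries labelled knockout lay below all chow libraries, as in 36% of all genes. Slc13a2 (-0.15, 95% interval -0.32 to 0.029), Slc9a3 (-0.17, -0.40 to 0.052), Slc13a1 (-0.0070, -0.28 to 0.27) and Slc26a6 (0.16, -0.50 to 0.81) were not called. With library size alone the changes of Slc5a12 (-0.17, edgeR adjusted p = 0.417) and Slc26a1 (-0.29, edgeR adjusted p = 0.0594) lost their call, and Slc13a1, Slc13a2, Slc9a3 and Slc26a6 were called higher at 0.56, 0.42, 0.39 and 0.73. With a transcript-length offset Slc9a3 was called lower (-0.29, edgeR adjusted p = 0.0218), which made 7 genes lower. This comparison shares its chow libraries with the first one, and shares the libraries labelled knockout with the second.

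In some groups the highest or lowest values of many of the genes fell in the same library. Among the 6 libraries labelled knockout, replicate 5 had the lowest CPM in 9 of the 10 genes and replicate 2 the highest in 8. In wild type on adenine, replicate 5 was highest in 6 genes and replicate 1 lowest in 7. The same count over all genes was not made. A higher TMM factor lowers CPM: with the knockout label, replicate 5 had the highest factor (1.14) and replicate 2 the lowest (1.04). Wild-type replicate 1 had the highest factor of its group (1.24). The part of scaling in these positions was not tested. Replicate 5 of the libraries labelled knockout also had the lowest summed proximal markers of its group (2101 TPM) and the highest summed injured-tubule markers (787 TPM), whereas replicate 2 had the highest proximal sum (3868 TPM). Red blood cell markers were lowest in the same replicate 5 (605 TPM) and highest in replicate 2 (1363 TPM).

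Between the groups, the 5 markers of the early and middle proximal tubule were all called higher in the libraries labelled knockout, from 1076 to 1899 TPM in sum in wild type and from 2101 to 3868 TPM in the libraries labelled knockout. The latter sums exceeded those on chow (1581 to 1683 TPM). Yet 4 of the 5 markers were called lower than on chow after TMM scaling, which TPM does not carry. Against wild type, podocyte (3 of 3), endothelial (3 of 3) and collecting duct markers (5 of 5) were called higher as well. Of the 4 fibroblast markers 2 were called higher and 0 lower, and of the 5 macrophage markers 1 was called lower and 0 higher. Injured-tubule markers were called lower for 3 of 5, with sums of 629 to 892 TPM and 477 to 787 TPM. Red blood cell markers, at 40.6 to 96.0 TPM in wild type, were at 605 to 1363 TPM in the libraries labelled knockout, with 5 of 5 called higher. Cela1 was higher as well (log2 change 2.16 ± 0.16), with pancreas sums of 59.3 to 123 TPM in the libraries labelled knockout. The part of these shifts in the rises of the 10 genes was not tested.

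With antibody, 9 of the 10 genes were higher than with IgG and 0 were lower. Slc5a12 was 3.68-fold, Slc5a8 2.85-fold and Slc13a3 2.57-fold higher, and the smallest rise was that of Slc9a3r1 at 1.44-fold. Over all 16410 genes tested 55.3% were called, 27.2% higher and 28% lower. In all 9 the antibody libraries lay above every IgG library, as in 25.4% of all genes. The median log2 change of the 10 genes was 1.11, against -0.036 over all genes. All 9 rises were called in each of the 135 alternative fits of single genes. Scaling moved the split over all genes, from 4469 higher and 4603 lower to 2988 and 6621 with upper-quartile scaling and 2074 and 7275 with library size alone.

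Slc13a1, which had not been called in the first experiment, had 980, 661, 946 and 715 CPM with IgG and 1661, 1690, 1786 and 1606 CPM with antibody. The groups lay apart, with a log2 change of 1.03 ± 0.13 (edgeR adjusted p = 0.000135). Slc26a1 had 40.4, 27.4, 34.1 and 26.2 CPM with IgG and 74.8, 77.4, 63.3 and 89.7 CPM with antibody (log2 change 1.25 ± 0.14, edgeR adjusted p = 8.39e-05). Both sulphate carriers rose here. Slc26a6 had 7.04, 4.05, 4.98 and 6.13 CPM with IgG and 3.98, 8.21, 3.42 and 1.27 CPM with antibody, and was not called (log2 change -0.39 ± 0.41, edgeR adjusted p = 0.443). Without antibody replicate 2, its change was -0.93 (edgeR adjusted p = 0.0456).

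Slc13a3 had 262, 133, 227 and 144 CPM with IgG and 426, 554, 442 and 545 CPM with antibody (log2 change 1.36 ± 0.20, edgeR adjusted p = 0.000333). Slc13a2 had 24.7, 19.1, 20.1 and 18.3 CPM with IgG and 31.6, 43.1, 30.1 and 39.5 CPM with antibody (log2 change 0.81 ± 0.13, edgeR adjusted p = 0.000450). For each of these dicarboxylate carriers the lowest antibody library was above the highest IgG library.

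Slc5a8 had 79.9, 72.7, 94.9 and 77.5 CPM with IgG and 205, 229, 181 and 312 CPM with antibody (log2 change 1.51 ± 0.16, edgeR adjusted p = 5.93e-05). Slc5a12 had 59.1, 38.6, 58.2 and 61.7 CPM with IgG and 171, 206, 159 and 265 CPM with antibody (log2 change 1.88 ± 0.18, edgeR adjusted p = 5.16e-05). Antibody replicate 4 was the highest for both monocarboxylate carriers.

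Slc4a4 had 462, 453, 537 and 479 CPM with IgG and 964, 1165, 989 and 1274 CPM with antibody (log2 change 1.19 ± 0.11, edgeR adjusted p = 4.35e-05). Slc9a3 had 53.1, 33.6, 41.7 and 36.9 CPM with IgG and 71.1, 76.0, 78.5 and 85.6 CPM with antibody (log2 change 0.91 ± 0.13, edgeR adjusted p = 0.000209). Slc9a3r1 had 126, 113, 117 and 109 CPM with IgG and 161, 173, 172 and 163 CPM with antibody (log2 change 0.52 ± 0.066, edgeR adjusted p = 0.000132). The scaffold rose least of the 3 acid and bicarbonate genes.

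Markers moved with these rises as well. All 5 early and middle and all 4 late proximal tubule markers were called higher. The former summed to 284 to 379 TPM per IgG library and 699 to 949 TPM per antibody library. Other kidney markers were called higher too: loop of Henle and distal tubule (4 of 4), collecting duct (3 of 5) and podocytes (2 of 3). Of the 3 endothelial markers 1 was called lower and 0 higher. Injured-tubule markers were called lower for 5 of 5 (1088 to 1618 TPM with IgG, 623 to 1008 TPM with antibody), macrophage markers for 5 of 5 (195 to 459 TPM, then 71.5 to 121 TPM) and fibroblast markers for 4 of 4 (35.6 to 76.4 TPM, then 13.5 to 20.6 TPM). Of the 5 red blood cell markers 0 were called by edgeR (0 also at an unadjusted p under 0.05), with sums of 60.8 to 120 TPM and 76.1 to 121 TPM. The part of these shifts in the rises of the 10 genes was not tested. Enpp1 measured 9.51, 2.62, 3.26 and 17.4 CPM in the antibody libraries against 7.22 to 8.86 CPM with IgG.

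**Figure D4:**
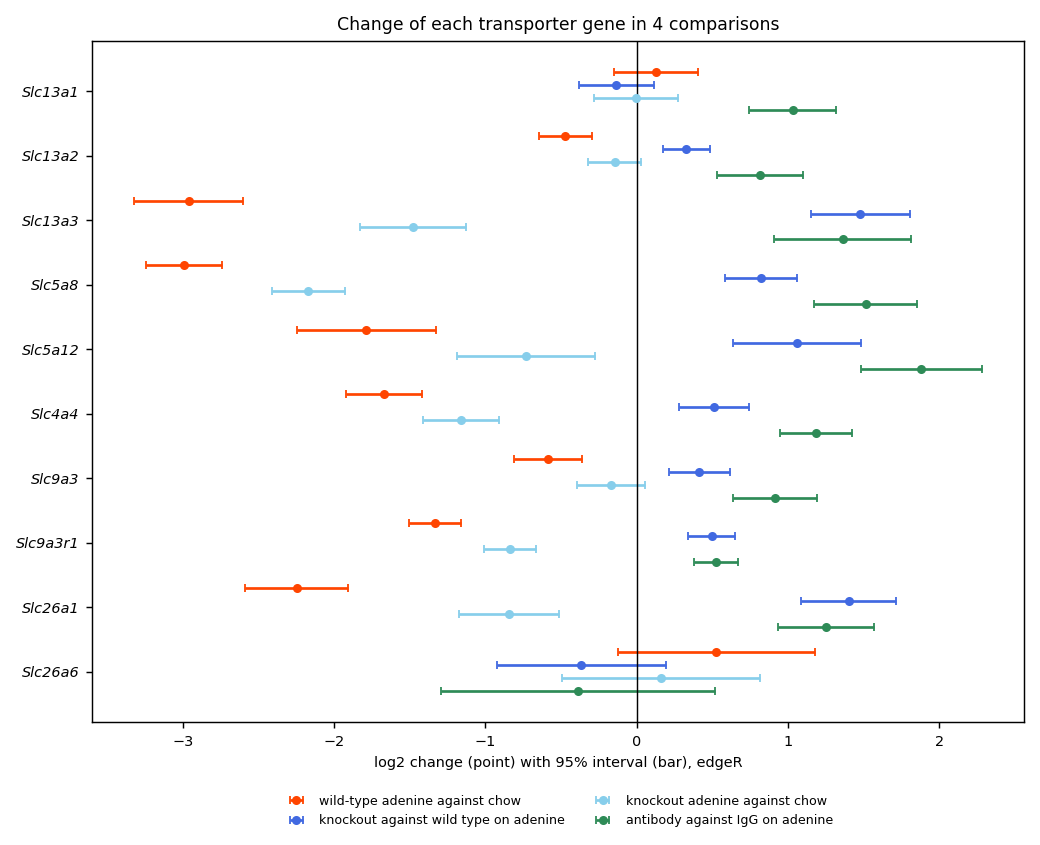
Log2 change (points) with 95% interval (bars) of each gene in 4 comparisons, from edgeR with TMM scaling. Slc13a1 stays near 0 in the 3 comparisons of the first experiment and is at 1.03 for antibody against IgG, and the bars of Slc26a6 cross 0 in each comparison.

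Each effect was then set against the other in a fit of the 20 adenine libraries, as the knockout-label effect minus the antibody effect. Of the 10 genes 6 were lower in this difference, that is, rose less or not at all in the libraries labelled knockout, and 0 were higher. Over all 17119 genes 37.9% were called, 21.6% lower and 16.3% higher. Slc13a1 differed most (-1.24 ± 0.20, edgeR adjusted p = 9.82e-05), followed by Slc5a12 (-0.90 ± 0.33, edgeR adjusted p = 0.0381), Slc5a8 (-0.77 ± 0.21, edgeR adjusted p = 0.00679) and Slc4a4 (-0.75 ± 0.18, edgeR adjusted p = 0.00271). Slc9a3 (-0.58 ± 0.18, edgeR adjusted p = 0.0133) and Slc13a2 (-0.57 ± 0.16, edgeR adjusted p = 0.00736) completed the 6. For Slc13a3 (0.037, 95% interval -0.56 to 0.64) and Slc26a1 (0.072, -0.44 to 0.59), and for Slc9a3r1 (-0.11, -0.34 to 0.13) and Slc26a6 (-0.063, -0.96 to 0.83), no difference passed the test. The call of Slc5a12 was lost in 8 of the 20 fits without a library: replicate 3, 4 or 5 of the knockout label, replicate 5 or 6 of wild type, antibody replicate 2 or 4, and IgG replicate 2. The weakest was that without antibody replicate 4 (-0.73, edgeR adjusted p = 0.101). The call was also lost with upper-quartile scaling (-0.75, edgeR adjusted p = 0.0735), the transcript-length offset (-0.80, edgeR adjusted p = 0.0787), library size alone (-0.66, edgeR adjusted p = 0.0855) and the replicate block (-0.87, edgeR adjusted p = 0.113). The 2 effects come from separate experiments, so the experiment and the agent cannot be told apart.

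The IgG and wild-type libraries, both on adenine, differed in the level of some of the genes: Slc13a1 was at 356 ± 49.4 TPM with IgG and 202 ± 34.6 in wild type, and Slc5a8 at 15.4 ± 2.60 and 3.22 ± 0.398 TPM. These are values side by side from separate experiments, with no test.

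Shares of single transcripts within a gene also differed between groups. A tally took 25 transcripts of the 10 genes with a mean share of at least 1% in a group. In wild type on adenine against chow, 10 had shares that did not overlap (4 genes). There were 3 with the knockout label against wild type (2 genes). There were 10 with the knockout label against chow (4 genes) and 10 with antibody against IgG (7 genes). The same tally over all genes was not made, so these counts have no background to be read against. A rise of 1 share lowers the others of its gene, so such transcripts are counted together. For example, a short non-coding transcript of Slc5a12 (ENSMUST00000127822) took 6.11% to 7.26% on chow and 4.01% to 5.21% in wild type on adenine, and one of Slc9a3 (ENSMUST00000221410) took 1.62% to 2.23% with IgG and 2.91% to 3.59% with antibody. A transcript each of Slc13a3 and Slc13a1 is described in full. They, like these examples, were chosen after their values had been seen, and a share is a division of reads by the authors' quantification between transcripts that overlap over most of their length. The longer coding transcript of Slc13a3, which holds the 126-base exon printed above and 267 further bases at its 3′ end, took 8.49%, 10.3%, 10.8% and 10.1% of the gene's reads on chow. In wild type on adenine it took 9.72%, 11.7% and 14.3% (lowest, median and highest), and in the libraries labelled knockout 14.2%, 17.1% and 23.8%. The last 2 groups met only at their edges, and the mean difference was 6.35 percentage points (exact permutation p = 0.00433, adjusted p = 0.019 over 8 share tests, two-sided). With IgG it took 17.5%, 17.5%, 22.4% and 17.8%, and with antibody 35.4%, 42.7%, 39.9% and 38.3%. These groups were well apart, by 20.3 percentage points (exact permutation p = 0.0286, the smallest that 4 against 4 can give, adjusted p = 0.0381). Wild type on adenine against chow did not pass (1.71 percentage points, exact permutation p = 0.114, adjusted p = 0.131), whereas the libraries labelled knockout exceeded chow by 8.06 percentage points (exact permutation p = 0.00952, adjusted p = 0.019).

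Slc13a1 has a short non-coding transcript (ENSMUST00000174594) of 1562 bases, 174 of which are not part of the coding transcript. It took 40.3%, 39.7%, 37.9% and 37.4% of the gene's reads on chow and 21.5%, 25.1% and 28.7% in wild type on adenine, a difference of -13.7 percentage points (exact permutation p = 0.00952, adjusted p = 0.019). In the libraries labelled knockout it took 24.5%, 27.5% and 29.1%, and the difference from wild type did not pass (2.04 percentage points, exact permutation p = 0.173). Shares in the second experiment were far lower, at 4.77%, 4.78%, 5.39% and 5.13% with IgG and 3.23%, 3.69%, 3.09% and 3.74% with antibody (-1.58 percentage points, exact permutation p = 0.0286, adjusted p = 0.0381). The sum of Slc13a1 reads thus held different mixtures of coding and non-coding transcripts in the 2 experiments.

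**Figure D5:**
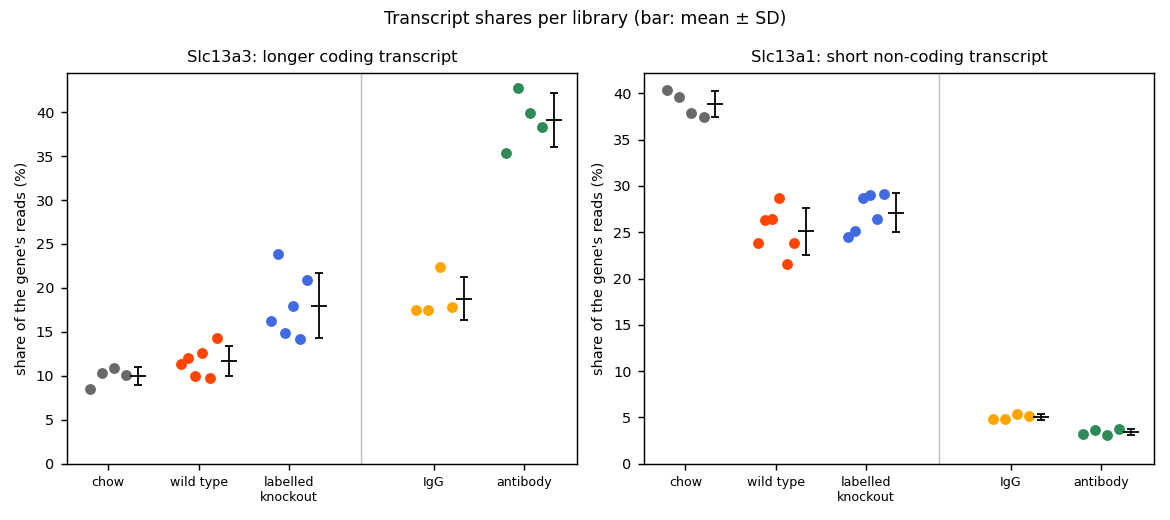
Share of a gene's reads (vertical axis, percent, from 0) taken by the longer coding transcript of Slc13a3 (left) and by the short non-coding transcript of Slc13a1 (right) in each library (points), with the mean and SD beside each group. The Slc13a3 share is 35.4% to 42.7% with antibody and 17.5% to 22.4% with IgG, and the Slc13a1 share is 37.4% to 40.3% on chow.

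The partners of these genes followed the same directions for most members of each list. Over all genes tested, 40.9% were called lower and 44% higher in wild type on adenine against chow. The shares were 25.1% higher and 21.3% lower with the knockout label, and 27.2% higher and 28% lower with antibody. Counts and changes of the lists were taken with TMM scaling only. With library size alone the median of all genes against chow moved from 0.073 to 0.72, so how far the falls go depends on the scaling. Among 16 genes of bicarbonate, proton and ammonia handling, 12 fell and 4 rose in wild type on adenine against chow (median log2 change -0.89), and 10 rose and 2 fell in the libraries labelled knockout against wild type (0.20). With antibody 11 rose and 2 fell (0.66). Pck1, a key enzyme of glucose synthesis from glutamine carbon, changed by -1.73 ± 0.16 on adenine, 1.04 ± 0.14 with the knockout label and 1.48 ± 0.23 with antibody, each called. The carbonic anhydrase Car2 changed by -1.01 ± 0.067 on adenine and 0.20 ± 0.061 with the knockout label, both called, and was not called with antibody (-0.0033). Car15, a membrane carbonic anhydrase, changed by -0.30 ± 0.060 on adenine, and was not called with the knockout label (-0.047) or with antibody (0.15). Against the majority, Slc4a2 (an anion exchanger; 0.68 ± 0.041) and Slc4a7 (a sodium-bicarbonate carrier; 0.46 ± 0.077) were among those that rose in wild type on adenine.

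Of the 9 scaffolds and partners of NHERF1, 8 fell and 1 rose in wild type on adenine (median -1.17), 7 rose and 1 fell with the knockout label (0.44), and 6 rose and 1 fell with antibody (0.71). Slc34a1, the sodium-phosphate carrier that NHERF1 binds, is also counted among the proximal tubule markers. It changed by -1.18 ± 0.17, 1.31 ± 0.16 and 1.65 ± 0.16 in these comparisons. Pdzk1, a second scaffold, changed by -2.79 ± 0.14, 1.04 ± 0.12 and 1.18 ± 0.12, and Pth1r, the parathyroid hormone receptor, by -0.93 ± 0.072, 0.37 ± 0.066 and 0.71 ± 0.11. All 9 of these values were called. Msn (moesin), which links membranes to actin in many cells, went the other way in each, by 0.55 ± 0.061, -0.18 ± 0.054 and -0.44 ± 0.099.

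Of 14 tested relatives that handle carboxylates and sulphate, 11 fell and 3 rose on adenine (median -1.40), and 9 rose and 1 fell with the knockout label (0.44). In the antibody fit 9 of 15 rose and 0 fell (0.96). Papss2, which makes the active sulphate donor, changed by -2.90 ± 0.14, 1.32 ± 0.13 and 1.18 ± 0.13, and its relative Papss1 by -0.95 ± 0.055, 0.20 ± 0.050 and 0.43 ± 0.069. Slc26a4 (pendrin), which marks intercalated cells of the collecting duct and is also counted among the markers, changed by -1.76 ± 0.13, 0.78 ± 0.12 and 1.79 ± 0.29. Those that rose on adenine were Slc26a9 (2.00 ± 0.33), Slc26a3 (1.10 ± 0.18) and Slc26a11 (0.87 ± 0.067), all anion carriers.

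Of 10 genes of the sodium gradient and other sodium-coupled carriers, 9 fell and 1 rose on adenine (median -1.78), 7 rose and 1 fell with the knockout label (0.54), and 9 rose and 0 fell with antibody (0.64). Atp1b1, a subunit of the sodium pump, changed by -1.28 ± 0.089 on adenine, by 0.30 ± 0.081 with the knockout label and by 0.51 ± 0.085 with antibody. Fxyd2, the pump's regulatory subunit, changed by -2.04 ± 0.077, 0.83 ± 0.070 and 0.69 ± 0.15. Slc20a1, a phosphate carrier of many cell types, rose by 1.74 ± 0.13 on adenine and changed by -0.60 ± 0.10 with the knockout label. Slc5a1 and Slc5a2 of this list are also counted among the proximal tubule markers.

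The genes whose pattern over the 16 libraries of the first experiment was nearest to each member were ranked by the root mean square difference of centred log2 CPM, among 12108 genes with at least 5 CPM on average. Nearest to Slc13a3 were Isoc2a (0.13) and the mitochondrial aminotransferase Got2 (0.13). Slc5a8 had Acadm (0.12), a fatty acid oxidation enzyme, and Nudt19 (0.13). Slc5a12 had Hsd3b3 (0.11) and Pbld1 (0.14). Slc4a4 had the peroxisomal gene Abcd3 (0.075), and Slc26a1 had the glucose carrier Slc5a2 (0.13) and the urea cycle enzyme Asl (0.14). For Slc13a2 these were Pde9a (0.064) and Tef (0.070), for Slc9a3 Dmtn (0.089) and Slc47a1 (0.094), for Slc9a3r1 B3gat2 (0.057) and Cltb (0.064), and for Slc13a1 Pcsk5 (0.14) and Hspbap1 (0.15). Slc26a6 had no near neighbour (Cep78 at 0.51, Zfp974 at 0.52). Within the 10, Slc13a2 and Slc9a3 were closest (0.14), then Slc4a4 and Slc9a3r1 (0.19) and Slc5a12 and Slc26a1 (0.24). Genes outside the 10 were nearer: Slc9a3 stood at rank 112 for Slc13a2, and Slc13a2 at rank 19 for Slc9a3. Slc9a3r1 stood at rank 459 for Slc4a4, and Slc26a1 at rank 19 for Slc5a12. These distances are a description over libraries that share groups and scaling.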

How the data were processed

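Whole-kidney RNA (400 ng a library) was made into stranded libraries, per the labels' protocols. The submitters' processing notes name Salmon, FastQC, DESeq, DESeq2 and the build GRCm39, without versions. The deposited values are the authors' estimated counts per transcript, not normalized and not always whole, per the file headers. TPM values, also from the authors' quantification, were used for levels and not tested, and the deposited effective lengths only as an offset in an alternative.

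Transcripts were joined to genes by Ensembl identifier in GENCODE M21 (GRCm38): 115685 of 116755 matched (99.1%), and the other 1070 held 0.439% to 0.527% of a library's reads and were left out. Counts were summed per gene and rounded. Genes passing filterByExpr were tested with edgeR 4.0.16 (R 4.3.3; TMM scaling, quasi-likelihood F test, two-sided, Benjamini-Hochberg over all genes tested, threshold 0.05). A fit of 16 libraries gave the 3 comparisons of the first experiment, a fit of 8 the antibody comparison and a fit of 20 the difference of effects. Standard errors derive from the F statistic. Transcript shares were compared by exact permutation tests. The script was checked on simulated data. No libraries held identical values.

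The members, lists and tests were chosen with earlier results of these data known. Named with values are the 10 members, Enpp1, the 3 genes of highest TPM and those against the majority in each pathway list, and the 2 genes most like each member. Some genes that this rule names are not reported here. Alternatives were RLE and upper-quartile scaling, library size alone, no filter, DESeq2 1.42.0, a replicate block, a transcript-length offset, only the groups compared, and each library left out.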

Additional observations from a re-analysis of the deposited data

Results flagged for a closer look

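Among 50 sets of libraries (10 genes in 5 groups), 2 held a value far from the rest by Dixon's test at 95%, a test by which chance flags about 1 group in 20. Slc5a12 in IgG replicate 2 had 38.6 CPM where the other IgG libraries had 58.2 to 61.7 CPM. Slc9a3r1 in wild-type adenine replicate 3 had 124 CPM where the next highest library had 105 CPM.

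The effect of the knockout label and the effect of the antibody differed for 6 genes by the interaction test of edgeR: Slc13a1 (-1.24), Slc5a12 (-0.90), Slc5a8 (-0.77), Slc4a4 (-0.75), Slc9a3 (-0.58) and Slc13a2 (-0.57), each a log2 difference that is negative where the antibody effect was higher. The agent and the experiment cannot be told apart in it.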

How the results depend on the processing

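The calls in the libraries labelled knockout against wild type (192 of 192 alternative fits of the called genes) and in antibody against IgG (135 of 135) kept direction and side of the threshold. DESeq2, RLE scaling and the absence of a filter changed no call or direction of a gene (50 of 50 each). The cause of the changes below was not tested. With library size alone, wild type on adenine against chow gave Slc13a2 0.18 and Slc9a3 0.056, and 3 genes higher in place of 0. The libraries labelled knockout against chow gave Slc13a1 0.56, Slc13a2 0.42, Slc9a3 0.39 and Slc26a6 0.73, and 4 higher in place of 0. The difference of effects gave Slc9a3r1 0.13 and Slc26a6 0.17. With upper-quartile scaling 2 genes were higher in wild type on adenine against chow (Slc13a1 0.35 and Slc26a6 0.75). The libraries labelled knockout against chow gave Slc13a1 0.15 and Slc13a2 0.013, and the difference of effects Slc9a3r1 0.047, Slc26a6 0.10 and Slc9a3 -0.42 (edgeR adjusted p = 0.0573). With the length offset, Slc13a1 on adenine against chow was -0.038, Slc26a6 with the knockout label against chow -0.057, and the differences of effects of Slc13a3 and Slc26a6 were -0.070 and 0.011. With this offset Slc9a3 with the knockout label against chow became called (-0.29, edgeR adjusted p = 0.0218), and the difference of effects of Slc5a12 lost its call (-0.80, edgeR adjusted p = 0.0787), as it did with library size alone (-0.66) and upper-quartile scaling (-0.75). With only the groups compared, Slc13a1 with the knockout label against chow was 0.026.

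Leaving out each library in turn, Slc13a1 with the knockout label against chow ranged from -0.044 to 0.034 and Slc26a6 from -0.15 to 0.45. The differences of effects ranged from -0.15 to 0.18 for Slc13a3, -0.054 to 0.17 for Slc26a1, -0.36 to 0.50 for Slc26a6 and -1.01 to -0.70 for Slc5a12. Genes higher in wild type on adenine against chow numbered 0 to 1 (Slc26a6, without chow replicate 3), and genes lower with antibody 0 to 1 (Slc26a6, without antibody replicate 2). The antibody transcript shares cannot reach adjusted p 0.05 with 3 libraries against 4, and their differences stayed between 19.1 and 21.5 percentage points for Slc13a3.

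Library numbers did not pair the samples: over 18 same-numbered pairs the correlation of deviations ran from -0.14 to 0.069, and 2 correlated best with their own number. With the replicate block the genes called were 8 lower, 8 higher, 6 lower and 9 higher in the 4 comparisons, and 5 lower in the difference of effects, where Slc5a12 was -0.87 (edgeR adjusted p = 0.113), Slc13a3 -0.029 and Slc26a6 0.086. Over all genes, higher calls in the difference went from 2788 to 4504 with upper-quartile scaling and 4940 with library size alone, and lower calls from 3697 to 2012 and 943.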
